A study of Canis lupus familiaris with 18 samples.

Results

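Tumour suppressors of the RB pathway and the oncogenes that drive entry into the cell cycle were examined in 18 canine primary osteosarcomas. The genes were RB1, CDKN2A, CDKN2B, MYC, MDM2, CDK4, CCND1 and CCNE1. They were taken by symbol, and every probe set that the platform annotation gives to exactly 1 of these symbols was used. This gave 13 probe sets for 7 of the 8 genes, of 42924 probe sets and 15115 named genes on the array other than controls. RB1, CDK4, CCND1 and CCNE1 had 2 each, MDM2 had 3, and CDKN2B and MYC had 1 each. CDKN2A had none under this rule and is not analysed here. Its neighbour MTAP is given in its place where the locus is described. Where a gene had several probe sets they are numbered from the highest mean signal to the lowest.

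The tumours came from 9 dogs with an increased and 9 dogs with a normal serum level of alkaline phosphatase (ALP), which reaches the blood chiefly from bone and liver. Total RNA of snap frozen tumour tissue was labelled with biotin and hybridised to 1 Affymetrix canine array per tumour. Genotype, breed, age and treatment of the dogs are not part of the labels used here, and no normal tissue served as a control. The replicate numbers below are the tissue numbers within each group.

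RB1 encodes the retinoblastoma protein, which holds E2F transcription factors inactive until it is phosphorylated. Cyclin D1, from CCND1, with the kinase CDK4 starts that phosphorylation, cyclin E1, from CCNE1, with CDK2 completes it, and the p15 and p16 proteins from CDKN2B and CDKN2A inhibit CDK4. CDKN2A also encodes ARF, which restrains MDM2, a ubiquitin ligase, and MYC is a transcription factor that drives growth and proliferation. In human and canine osteosarcoma these genes are known mainly for loss or gain of DNA copies that differ from tumour to tumour, so single tumours are described here as well as the groups.

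Values are levels on the scale of log2(signal + 16) unless called a difference, and differences between groups are increased minus normal ALP. This scale understates the change of dim probe sets, and the number of arrays limits the precision of every comparison. The arrays had medians from 6.25 to 6.31 in the log2 values as deposited. COL1A1, the main collagen of bone, lay between 13.73 and 14.88 in increased ALP and between 12.75 and 14.72 in normal ALP tumours, and 6 of the 7 osteoblast markers looked for were measured, all but SP7. The osteoblast gene IBSP ranged from 5.42 to 14.21 in increased ALP and from 4.85 to 13.73 in normal ALP tumours. The highest skeletal muscle marker scores were 3.96, in increased ALP replicate 4, and 5.81, in normal ALP replicate 1, as mean deviations of 4 measured genes. Increased ALP replicates 3 and 6 had a large difference between 3' and middle actin probe sets (2.17 and 2.12), a sign of RNA quality, and this difference ranged from 1.44 to 2.17 in increased ALP and from 1.19 to 1.76 in normal ALP tumours.

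None of the genes could be called different between the serum ALP groups. Of the 11 member probe sets above the filter on dim signals, 0 were called higher and 0 lower in limma at an adjusted p under 0.05, against 0% of all 25754 probe sets tested in each direction. At an unadjusted p under 0.05 the count was 0 of 11, against 6.14% of all tested. The levels of the 2 groups overlapped at every member probe set, and the share of all tested probe sets with such overlap was not counted. RB1 probe set 2 and the CDKN2B probe set were too dim for the fit and were compared by exact permutation only. In tissue pieces of this kind, fewer cells of a type and less RNA per cell cannot be told apart.

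**Figure D1:**
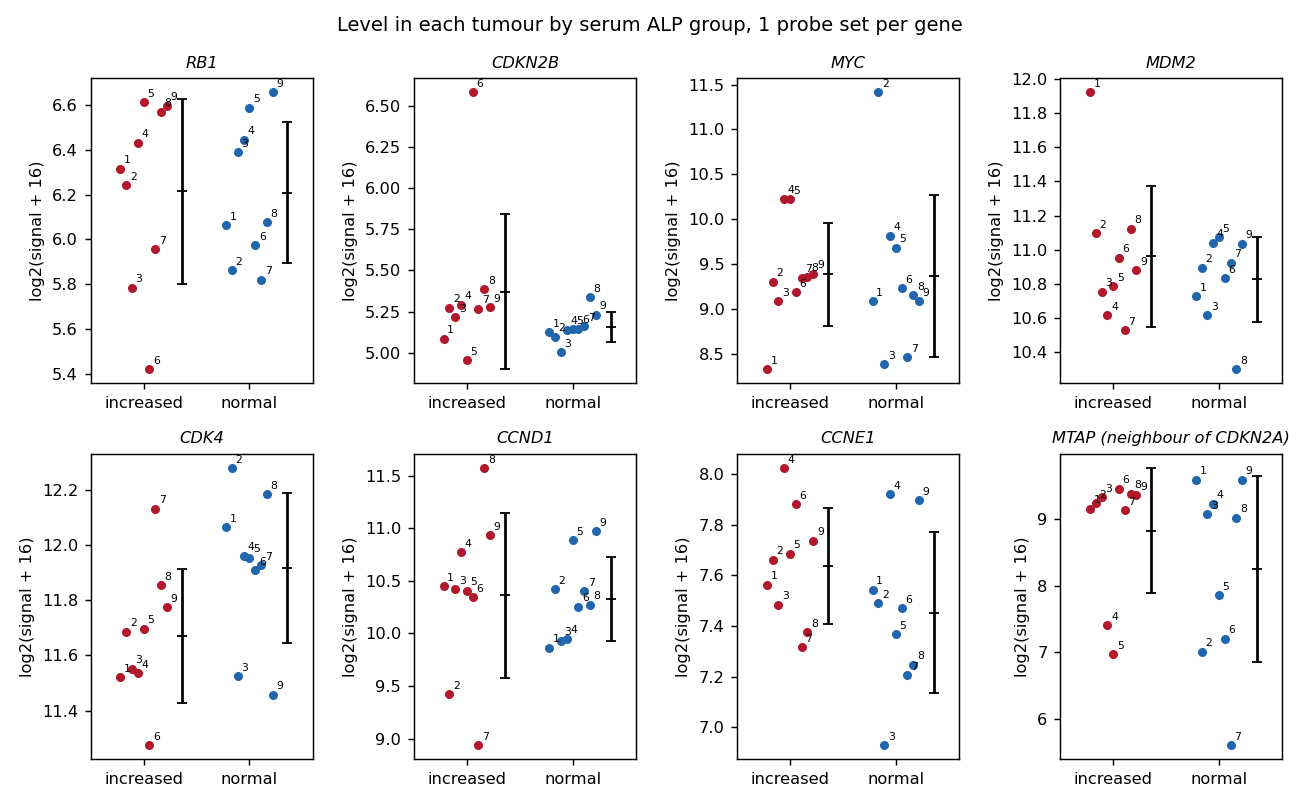
Level, as log2(signal + 16), of the 7 genes with a probe set and, in the last panel, of MTAP, the neighbour of CDKN2A. Points are 9 increased ALP tumours (left, red) and 9 normal ALP tumours (right, blue), at probe set 1 of each gene. The replicate number is beside each point, and bars give the mean and SD. The groups overlap in every panel, and single tumours sit far from the rest at CDKN2B (increased ALP 6, 6.58), MYC (normal ALP 2, 11.41) and MDM2 (increased ALP 1, 11.92).

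The tumour suppressors had the dimmest probe sets. RB1 probe set 1 had a lowest, median and highest level of 5.42, 6.32 and 6.61 in increased ALP tumours, against 5.82, 6.08 and 6.66 in normal ALP tumours. The mean was 6.21 ± 0.41 in increased ALP and 6.21 ± 0.32 in normal ALP tumours (SD, n = 9 each). The groups differed by 0.01 ± 0.16 (SE), with a limma adjusted p of 0.998. RB1 probe set 2 gave 6.12 ± 0.40 in increased ALP and 6.11 ± 0.34 in normal ALP tumours (SD, n = 9 each, exact permutation p = 0.941). CDKN2B had 4.95, 5.27 and 6.58 as lowest, median and highest in increased ALP tumours, against 5.004, 5.14 and 5.34 in normal ALP tumours. All but 1 tumour lay in a narrow band near the bottom of the scale, which leaves little range in which a lower CDKN2B level could show. The CDKN2B difference was 0.22 (exact permutation p = 0.129, n = 9 each), and without increased ALP replicate 6 it was 0.065.

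Of the kinase and its cyclins, CDK4 came nearest to a difference. Its probe set 1, of the _s_at type that can share probes with related transcripts, had 11.27, 11.69 and 12.13 as lowest, median and highest in increased ALP tumours, against 11.46, 11.95 and 12.28 in normal ALP tumours. The difference was -0.25 ± 0.12 (SE, 95% interval -0.51 to 0.01), with a limma unadjusted p of 0.0600 and an adjusted p of 0.823. The exact permutation p was 0.0589 (two-sided, n = 9 each). With the actin or the GAPDH difference as a covariate, the CDK4 difference at this probe set was -0.080 or -0.13. CDK4 probe set 2 had 11.63 ± 0.23 in increased ALP and 11.71 ± 0.19 in normal ALP tumours (SD, n = 9 each), which differed by -0.08 ± 0.11 (SE, limma adjusted p = 0.925). The 2 CDK4 probe sets ordered the tumours only loosely alike, with r = 0.475 across the 18 tumours. The signal spanned 2.005-fold and 1.82-fold over all 18 tumours at the CDK4 probe sets.

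CCND1 varied far more, above all among the increased ALP tumours. Its probe set 1 had 8.94, 10.42 and 11.57 as lowest, median and highest in increased ALP tumours, against 9.87, 10.27 and 10.97 in normal ALP tumours. The mean was 10.36 ± 0.78 in increased ALP and 10.33 ± 0.40 in normal ALP tumours (SD, n = 9 each). The groups differed by 0.03 ± 0.28 (SE, 95% interval -0.55 to 0.62, limma adjusted p = 0.991). Both the highest and the lowest tumour belonged to the increased ALP group at either probe set, and the signal spanned 6.21-fold and 5.05-fold over all tumours. Increased ALP replicate 8 was highest at both, with 11.57 and 10.87, and replicates 2 and 7 were the 2 lowest at both. The probe sets ran closely together, with r = 0.874. At probe set 2 the difference was -0.04 ± 0.28 (SE, limma adjusted p = 0.989). Whether the spread differed between the groups was not tested.

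CCNE1 had a higher mean in increased ALP tumours, and the difference did not pass the test. Probe set 1 had 7.32, 7.66 and 8.02 as lowest, median and highest in increased ALP tumours, against 6.93, 7.47 and 7.92 in normal ALP tumours. The difference was 0.18 ± 0.13 (SE, 95% interval -0.10 to 0.46, limma adjusted p = 0.857), and at probe set 2 it was 0.09 ± 0.12 (SE, limma adjusted p = 0.912). Increased ALP replicate 4 was highest at both CCNE1 probe sets, with 8.02 and 7.27, and normal ALP replicate 4 came next at both, with 7.92 and 6.97. The 2 CCNE1 probe sets had r = 0.583 and did not share their lowest tumour. Normal ALP replicate 3 was lowest at probe set 1, with 6.93, and increased ALP replicate 6 at probe set 2, with 6.19, although it was at 7.88 on probe set 1, above the median of 7.52.

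MYC had nearly the same mean in the 2 groups over a wide range. It had 8.32, 9.34 and 10.23 as lowest, median and highest in increased ALP tumours, against 8.38, 9.15 and 11.41 in normal ALP tumours. The mean was 9.38 ± 0.58 in increased ALP and 9.37 ± 0.90 in normal ALP tumours (SD, n = 9 each). The groups differed by 0.02 ± 0.34 (SE, 95% interval -0.69 to 0.72, limma adjusted p = 0.997). The signal spanned 8.51-fold over the 18 tumours, the widest span of the member probe sets, and normal ALP replicate 2 alone set the top of that range. Without that tumour the MYC difference was 0.27.

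MDM2 was bright in every tumour. Probe set 1 had 10.53, 10.88 and 11.92 as lowest, median and highest in increased ALP tumours, against 10.30, 10.89 and 11.07 in normal ALP tumours. The difference was 0.13 ± 0.16 (SE, 95% interval -0.20 to 0.47, limma adjusted p = 0.912). Increased ALP replicate 1 carried much of it, and without that tumour the difference was 0.014. MDM2 probe sets 2 and 3 gave differences of 0.03 ± 0.19 and -0.04 ± 0.17 (SE, limma adjusted p = 0.987 and 0.982). The 3 MDM2 probe sets ran together across tumours, with r of 0.898, 0.810 and 0.942.

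**Figure D2:**
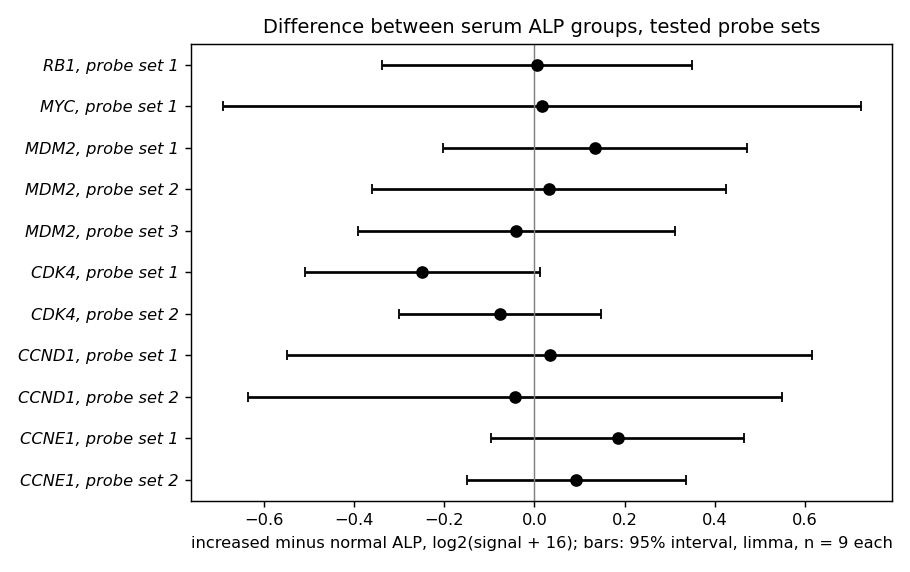
Difference in level, increased minus normal ALP, on the log2(signal + 16) scale, for the 11 member probe sets in the limma fit (points, with 95% intervals as bars, n = 9 tumours each). Every interval includes 0. CDK4 probe set 1 has the lowest difference, and its interval, from -0.51 to 0.01, has the lowest upper end. The intervals of MYC and CCND1 are wider and reach lower.

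Single tumours were then examined across both groups. A tumour was said to stand apart at a probe set where it lay at least 1 (log2) from the median of the 18 tumours and more than 3.5 robust SD from it, a robust SD being the median absolute deviation scaled to equal the SD of normally distributed values. This is a description with no test. At least 1 tumour lay 2-fold or more from the median at 4 of the 11 tested member probe sets, against 36.8% of all tested. Among the 11 tested member probe sets a tumour stood apart on the high side at 2, where 8.47% of all tested probe sets had such a tumour, and on the low side at 0, where 4% did. RB1 probe set 1, among the 11, was dim, which left little range for a tumour to stand apart on the low side. With the 2 untested dim probe sets the high count was 3 of 13. The 3 were MYC in normal ALP replicate 2, MDM2 probe set 1 in increased ALP replicate 1 and CDKN2B in increased ALP replicate 6. Under a rule of at least 2 (log2) and over 5 robust SD, MYC alone remained. Of all tested probe sets, 1.34% had a tumour that high and 0.256% one that low. With medians and spreads taken within each group of 9, CDKN2B in increased ALP replicate 6 remained on the high side, and MYC in increased ALP replicate 1, at 8.32, stood apart on the low side. The shares of all tested probe sets were then 10.3% high and 5.12% low.

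**Figure D3:**
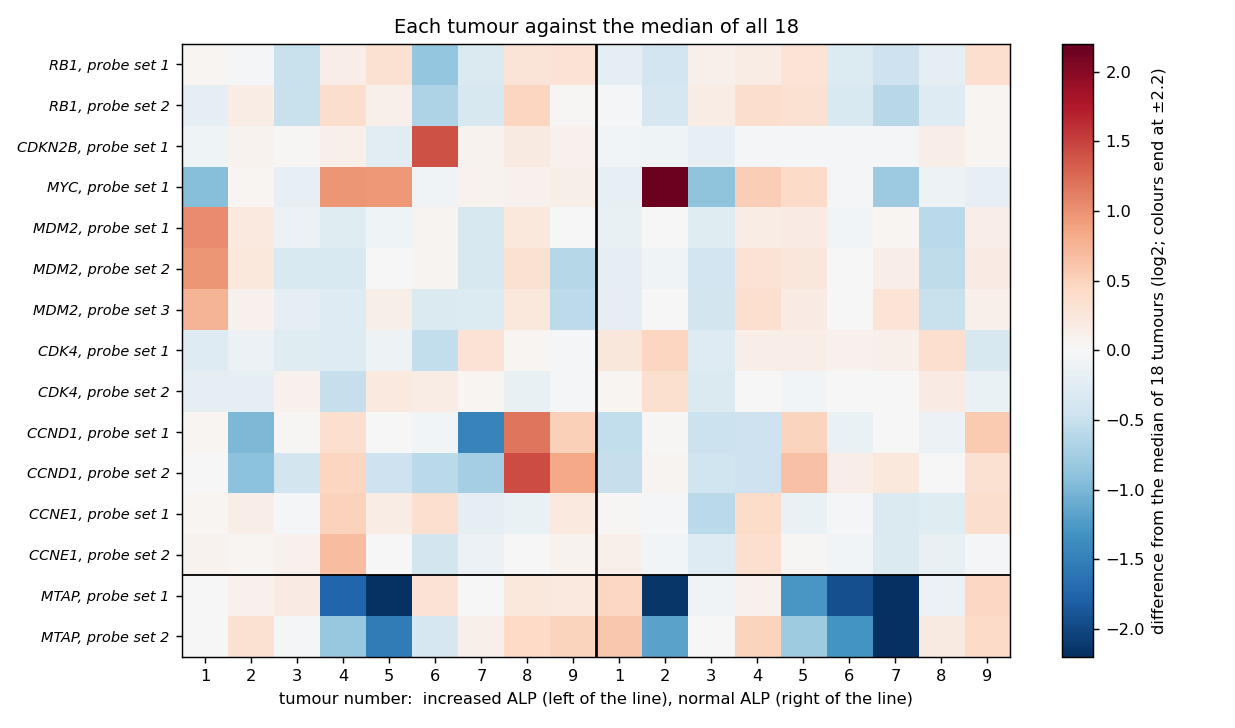
Difference of each tumour from the median of all 18 (log2, colour, ending at 2.2 in either direction) at the 13 member probe sets and, below the line, the 2 MTAP probe sets, with increased ALP tumours on the left and normal ALP tumours on the right. MYC in normal ALP 2, MDM2 probe set 1 in increased ALP 1 and CDKN2B in increased ALP 6 are those standing apart on the high side. CCND1 in increased ALP 8 is also red, at 1.17 and 1.43 above the median at its probe sets, but did not stand apart. MTAP is lowest in the same 6 tumours at both probe sets.

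The largest deviation was that of MYC in normal ALP replicate 2, at 11.41 against a median of 9.27, which is 4.43-fold. The next highest MYC levels were 10.23 and 10.22, in increased ALP replicates 4 and 5. DNA was not measured here, so the measured genes that lie beside a member in the genome were looked at for the same tumour. Of the 10 nearest to MYC, 5 on each side, 8 were above the median of 18 in normal ALP replicate 2, and 4 of them by at least 1 (log2). These were LRRC6, a dynein assembly factor, at 2.12 above the median, SQLE, squalene epoxidase of cholesterol synthesis, at 1.66, PHF20L1, a reader of methylated lysine, at 1.64, and WASHC5, a subunit of the WASH complex, at 1.19. ASAP1 and TRIB1, equally near, were at -0.08 and -0.06. Among the 20 nearest, 8 were at least 1 above, with TRMT12 at 1.85, TATDN1 at 1.80, RNF139 at 1.24 and NDUFB9 at 1.24 on the far side of SQLE, while KHDRBS3 was at -3.85, the lowest of the 18 tumours.

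The genes around MYC were higher still in a tumour whose MYC level fell just short of standing apart. That level was the third highest of the 18 tumours, at 0.95 above the median, under the limit of 1 (log2). In increased ALP replicate 5, where MYC was 10.22, all 10 nearest measured genes were above the median and 7 by at least 1 (log2). SQLE was at 2.45 above the median, LRRC6 at 1.64, WASHC5 at 1.52, TRIB1, a pseudokinase, at 1.44, CYRIB, which binds RAC1, at 1.23 and ASAP1, a regulator of ARF GTPases, at 1.19. Of the 20 nearest, 18 were above the median and 12 by at least 1. The mean deviation of the 10 nearest was 1.13 in this tumour and 0.71 in normal ALP replicate 2, and the third highest tumour had 0.37. Over all 181 measured genes on the chromosome of MYC, 12.7% lay at least 1 above the median in increased ALP replicate 5, where 2.57% of 10049 genes on all chromosomes did so. The 12.7% were 23 genes, and they include the 12 of the 20 nearest given above. In normal ALP replicate 2 the shares were 20.4% on that chromosome and 5.31% on all chromosomes, and those at least 1 below the median were 7.73% and 4.36%. The 20.4% were 37 genes, which include 8 of the 20 nearest to MYC. Increased ALP replicate 3, whose MYC level of 9.08 was below the median, had 10.5% at least 1 above on that chromosome and 3.09% on all chromosomes. The chromosome-wide median deviation was 0.03 in increased ALP replicate 5 and 0.01 in normal ALP replicate 2, so the median gene of the chromosome was not raised in either. Whether DNA copies differed was not tested. Normal ALP replicate 2 also stood apart at more probe sets than any other array, with 401 high and 201 low among those tested, and the part of this in its MYC level was not tested.

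MDM2 was highest in increased ALP replicate 1 at all 3 probe sets, with 11.92, 11.55 and 10.54. The next highest tumours were at 11.12, 10.90 and 10.16. At probe set 1 this was 2.05-fold above the median of 18, just past the limit of 1 (log2). At probe sets 2 and 3 it was 0.98 and 0.75 above the median and did not stand apart. Of the 10 nearest measured genes, 4 were highest of the 18 tumours in this tumour. They were NUP107, a nuclear pore protein, at 0.9997 above the median, RAP1B, a small GTPase, at 0.99, YEATS4, a chromatin reader, at 0.98 and SLC35E3, of a family of sugar nucleotide transporters, at 0.68. CPSF6 and FRS2, which also lie beside MDM2, were at -0.30 and -0.07. The mean deviation of the 10 nearest, 0.44, was the highest of the 18 tumours, followed by 0.35 in normal ALP replicate 2. CDK4 lies on the same chromosome as MDM2, and in increased ALP replicate 1 its levels of 11.52 and 11.49 were below the medians of 11.81 and 11.70. This tumour also had the highest fat cell and endothelial marker scores, 3.10 and 1.37, and the third largest actin difference, 2.03. Their part in the MDM2 level of this tumour was not tested.

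**Figure D4:**
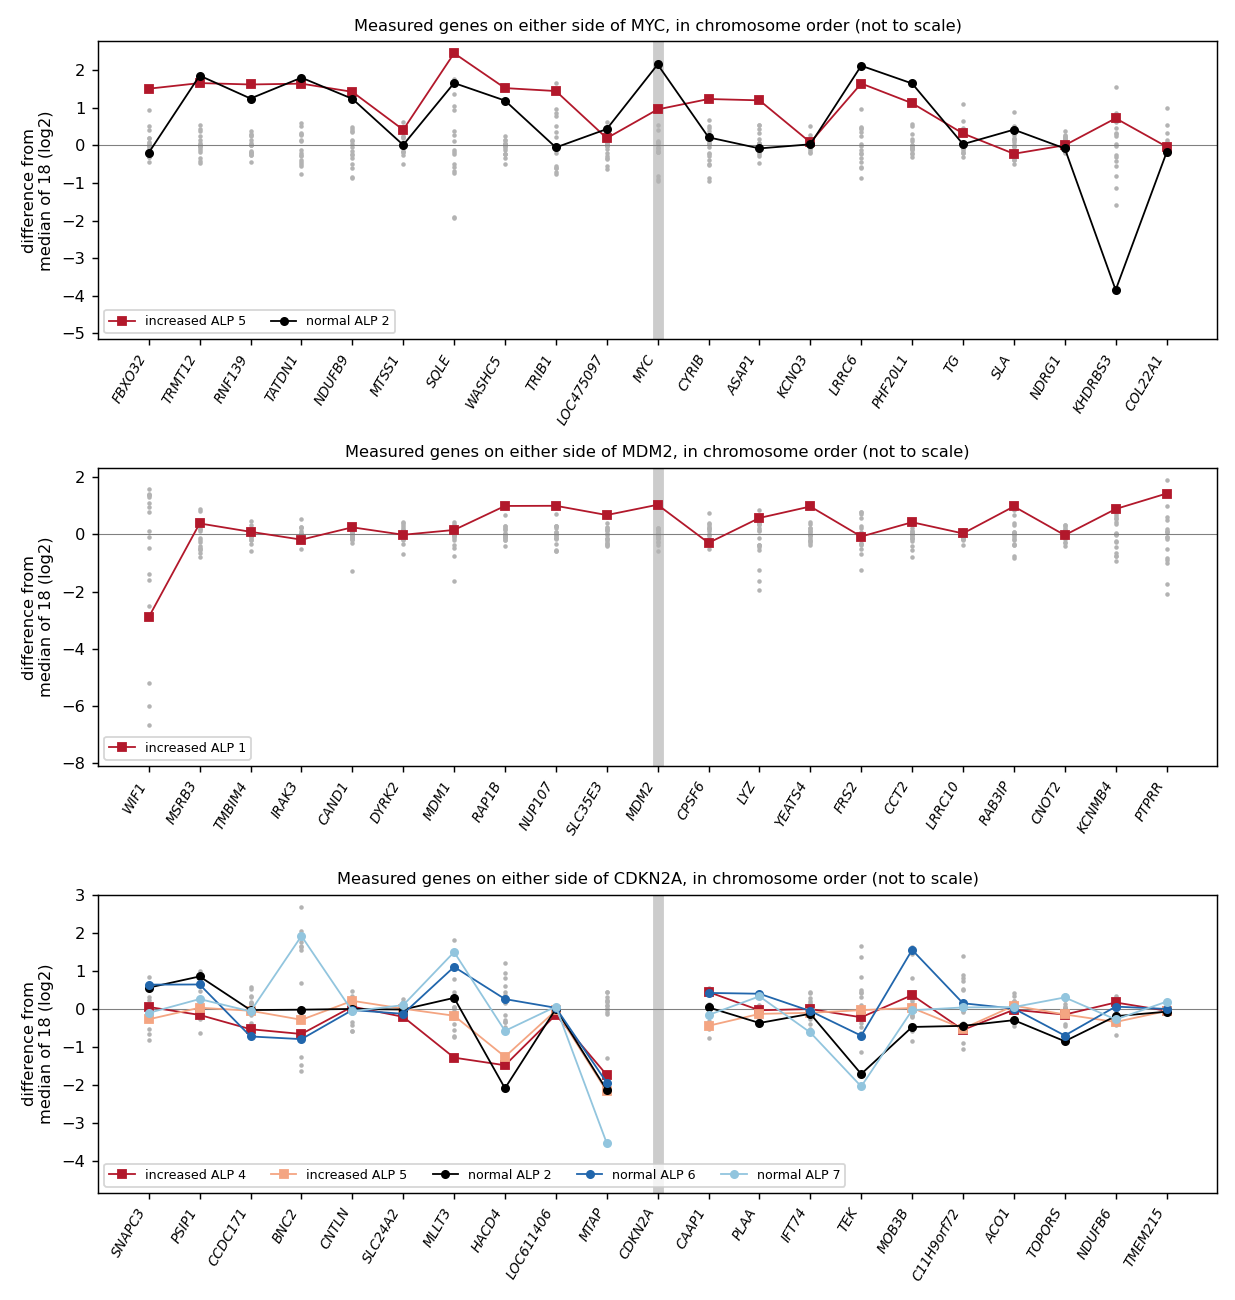
Difference from the median of 18 tumours (log2, vertical axis) for up to 10 measured genes on either side of MYC, MDM2 and CDKN2A in chromosome order, not to scale, with the named tumours as lines and all others as grey points. Increased ALP 5 is raised over stretches on both sides of MYC. Normal ALP 2 is raised at WASHC5, SQLE and the genes from NDUFB9 to TRMT12 on the left of MYC, and at LRRC6 and PHF20L1 on the right. Increased ALP 1 is raised over genes next to MDM2, and MTAP is low in increased ALP 4 and 5 and normal ALP 2, 6 and 7.

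CDKN2B, which encodes the CDK4 inhibitor p15, was at 6.58 in increased ALP replicate 6, against a median of 5.19. No fold is given, since it is not known whether the probe set lay above background in the other tumours. The other 17 tumours lay between 4.95 and 5.39. The genes around it did not share the rise, since 4 of the 10 nearest were above the median in this tumour and the highest of them was MTAP, at 0.31 on its probe set 1 and at -0.36 on its probe set 2. The same array had the lowest level of RB1 at both probe sets, 5.42 and 5.50, and it stood apart on the low side at 270 tested probe sets, more than any other array. Its actin difference of 2.12 was among the largest and its neutrophil marker score of 2.45 was the second highest. Their part in the CDKN2B and RB1 levels was not tested.

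At the locus of CDKN2A and CDKN2B, the clearest single-tumour pattern was at MTAP. MTAP encodes methylthioadenosine phosphorylase, which recycles methionine and adenine from polyamine synthesis, and in human tumours it is often deleted together with CDKN2A. Its probe set 1 had 6.97, 9.24 and 9.45 as lowest, median and highest in increased ALP tumours, against 5.61, 9.02 and 9.59 in normal ALP tumours. It stood apart on the low side in 5 tumours, which were increased ALP replicates 4 (7.41) and 5 (6.97) and normal ALP replicates 2 (7.01), 6 (7.21) and 7 (5.61). Normal ALP replicate 5, at 7.86, was just outside the rule, and the other 12 tumours lay between 9.02 and 9.59. Relative to the median of 9.14 the 5 tumours were 3.33-fold to 11.6-fold lower. The lowest, normal ALP replicate 7, also stood apart at 333 tested probe sets on the high and 191 on the low side. Its fat cell score was the lowest (-1.39) and its cartilage score the second highest (2.49). Their part in its MTAP level was not tested. Of the probe sets tested, 2 of 25754 (0.00777%) had at least 5 tumours standing apart on the low side, the other being DLA88, a class I histocompatibility gene. The count of 5 was taken from MTAP itself, so this share is a description and no test of MTAP.

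MTAP probe set 2 put the same 6 tumours lowest. It read 7.41 and 6.71 in increased ALP replicates 4 and 5, 7.06, 6.94 and 6.01 in normal ALP replicates 2, 6 and 7, and 7.47 in normal ALP replicate 5. The other 12 tumours lay between 7.88 and 8.84, and no tumour stood apart by the rule there, where the robust SD was 0.68. The 2 MTAP probe sets had r = 0.959 across tumours. Between the serum ALP groups MTAP probe set 1 gave 8.83 ± 0.94 in increased ALP and 8.24 ± 1.40 in normal ALP tumours (SD, n = 9 each), which differed by 0.58 ± 0.52 (SE, limma adjusted p = 0.881).

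Beyond MTAP the low levels were shared by only some of these tumours. HACD4, an enzyme of fatty acid elongation, was lowest in normal ALP replicate 2 at all 3 of its probe sets (8.01, 7.83 and 6.78). Increased ALP replicates 4 and 5 were the next lowest, at 8.61 and 8.84 on probe set 1, and they too were low at the other 2 probe sets. In normal ALP replicates 6 and 7 HACD4 was at 0.26 and -0.57 from the median of probe set 1. CAAP1, PLAA and IFT74, the nearest measured genes on the other side of CDKN2A, had no common low level in the 5 tumours. TEK, an endothelial receptor on that side, was at -2.04 in normal ALP replicate 7 and at -1.71 in normal ALP replicate 2. The endothelial marker score was lowest in these 2 tumours (-1.63 and -1.32), but TEK is itself 1 of its 4 genes. CDKN2B itself lay between 4.95 and 5.29 in the 5 tumours, and increased ALP replicate 5, at 4.95, was the lowest of all 18, next to 5.004 in normal ALP replicate 3. These arrays measured RNA, and whether the locus was deleted in these tumours was not tested.

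RB1 had no tumour standing apart. With medians of 6.28 and 6.19 and robust SDs of 0.45 and 0.50, its probe sets left little range for one on the low side. The absence of such a tumour therefore does not show that no tumour had lost RB1. The lowest tumours were the same at both probe sets. Increased ALP replicates 6 and 3 and normal ALP replicate 7 held the 3 lowest places, with 5.42, 5.78 and 5.82 on probe set 1 and 5.50, 5.69 and 5.58 on probe set 2. The probe sets had r = 0.863. Of the 10 measured genes nearest to RB1, the mean deviation was lowest in increased ALP replicate 6 and normal ALP replicate 7, at -0.48 each. Over the 20 nearest it was -0.25 in increased ALP replicate 6 and -0.47 in normal ALP replicate 7, and normal ALP replicates 8 and 2 were at -0.45 and -0.31. Increased ALP replicates 6 and 3 were the tumours with the largest actin differences, and the part of RNA quality in these low RB1 levels was not tested. Normal ALP replicate 7 stood apart at 333 tested probe sets on the high and 191 on the low side, and the part of this in its RB1 level was not tested. CCND1 likewise had no tumour standing apart and its robust SD was 0.61 at probe set 1, where increased ALP replicate 8 was 2.25-fold above and replicate 7 was 2.76-fold below the median.

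Across tumours the genes showed little relation to each other. Of 21 pairs of genes, using probe set 1 of each, 0 had a Pearson or Spearman correlation that passed after Benjamini-Hochberg adjustment over the pairs (permutation test, n = 18). The smallest adjusted p of Pearson's r was 0.437. The largest correlation was that of RB1 with CDKN2B, at r = -0.53 (permutation p = 0.0269, rho = -0.13, n = 18), and it rested on increased ALP replicates 6 and 3, since r was 0.02 without them. MDM2 and CDK4, which lie on the same chromosome, had r = -0.33 and rho = -0.27.

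MYC rose and fell with the genes of cell division. Each gene was set against a cell division score, the mean deviation of 23 measured genes of DNA replication and mitosis, which holds none of the 8 genes. Of 7 such relations MYC alone passed, with r = 0.69 (permutation p = 0.00393, adjusted over the 7 p = 0.0275) and rho = 0.65 (adjusted p = 0.0309). Normal ALP replicate 2 was highest in both the score (1.04) and MYC, and normal ALP replicate 3 was lowest in the score (-1.58) and had the second lowest MYC. That tumour also had the highest cartilage score (2.83) and the lowest macrophage, neutrophil and osteoclast scores (-1.12, -0.75 and -2.61), and the part of its cell content in the relation was not tested. Leaving out the 2 tumours farthest from the median of MYC (increased ALP replicate 4 and normal ALP replicate 2), r was 0.54 with an unadjusted permutation p of 0.0354. No relation then passed after adjustment, so the call needed these tumours. Fewer tumours and a narrower range of MYC make a call less likely for any relation, so this does not show that they alone carried it. Within groups r was 0.53 in increased ALP (exact permutation p = 0.139, n = 9) and 0.75 in normal ALP tumours (exact permutation p = 0.0495, n = 9). CCND1 had r = 0.50 with the score (adjusted permutation p = 0.129) and CCNE1 had r = 0.44 (adjusted permutation p = 0.158), and the CCNE1 value was 0.02 without increased ALP replicate 4 and normal ALP replicate 3. RB1, MDM2 and CDKN2B had r between -0.01 and 0.05, and CDK4 had r = 0.29. Within groups CCND1 had r = 0.75 in increased ALP (exact permutation p = 0.0210, n = 9) and 0.45 in normal ALP tumours (exact permutation p = 0.237, n = 9). CDK4 had r = -0.46 in increased ALP (exact permutation p = 0.222, n = 9) and 0.68 in normal ALP tumours (exact permutation p = 0.0414, n = 9). The within-group p-values, those of MYC included, were not adjusted.

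**Figure D5:**
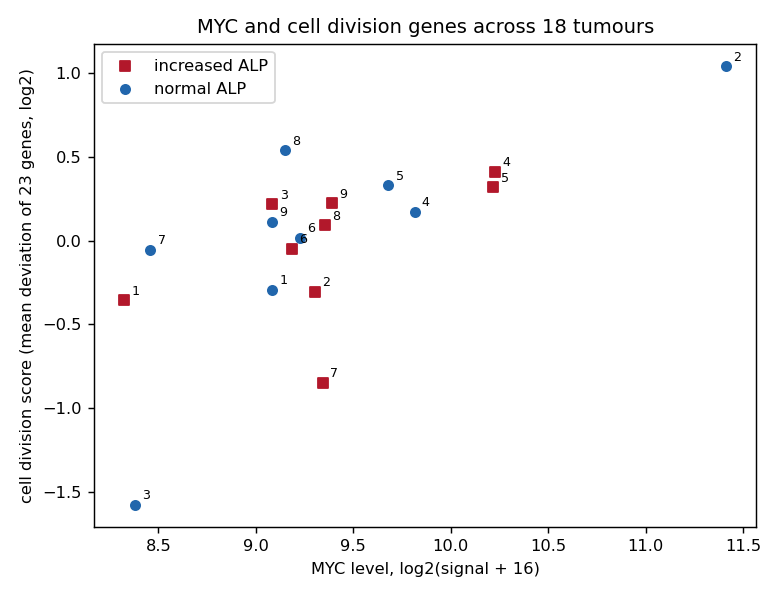
Cell division score (mean deviation of 23 genes, log2, vertical) against MYC level (log2(signal + 16), horizontal) in 9 increased ALP tumours (red squares) and 9 normal ALP tumours (blue circles), numbered by replicate. The points rise together with r = 0.69, and normal ALP 2 at the upper right and normal ALP 3 at the lower left mark the ends of the score.

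The genes whose levels were most like each member over the 18 tumours were named by the highest Pearson r among tested probe sets, as a description. Values picked as the highest of so many can be large by selection alone, and the level to expect from that was not computed. For MYC they were CHAF1A, a chromatin assembly factor of DNA replication, at 0.896, SLC38A1, a glutamine transporter, at 0.885 and PCK2, mitochondrial phosphoenolpyruvate carboxykinase, at 0.882. For MDM2 the nearest was RAP1B, its neighbour in the genome, at 0.855, followed by RND1 at 0.782 and CD48 at 0.765. CCND1 was nearest to CADM1, a cell adhesion molecule, at 0.881, PADI2 at 0.867 and TMEFF1 at 0.835. CDK4 was nearest to GSTA4 at 0.825, ELAC2 at 0.821 and DYNC1LI2 at 0.819. CCNE1 was nearest to MED13 at 0.789, POLD3, a DNA polymerase delta subunit, at 0.771 and MCCC2 at 0.757. RB1 was nearest to PLXND1 at 0.807, TUBGCP3 at 0.801 and PIEZO1 at 0.792. CDKN2B gave CPD at 0.905, TMPRSS15 at 0.903 and TCF7L2 at 0.887, and 1 tumour, increased ALP replicate 6, holds most of the range of CDKN2B.

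The other genes measured in these pathways gave no call between increased and normal ALP either. The lists below had 0 genes called higher and 0 called lower in limma at an adjusted p under 0.05. Of 24 genes of the RB axis 17 were measured, 6 higher and 11 lower in increased ALP, with a median difference of -0.01 beside 0.01 over all 10717 genes. The genes of smallest p were CDKN1B, which encodes the CDK2 inhibitor p27, at -0.20 ± 0.12 (SE), CDKN2D, an inhibitor of CDK4, at -0.32 ± 0.26, E2F6 at -0.17 ± 0.14 and RBL2, an RB relative, at 0.25 ± 0.21.

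The partners and targets of MYC were split about evenly in direction. Of 10 genes of the MYC network 9 were measured, 5 higher and 4 lower, with a median of 0.01, among them MXD3, a MAX partner, at 0.16 ± 0.08 (SE, limma unadjusted p = 0.0471, adjusted p = 0.809), MGA at 0.39 ± 0.23, MXD4 at -0.31 ± 0.20 and MXI1 at -0.21 ± 0.23. Of 14 MYC target genes 13 were measured, 6 higher and 7 lower, with NOP58 at 0.25 ± 0.21, ODC1, of polyamine synthesis, at -0.24 ± 0.21, DKC1 at 0.29 ± 0.27 and NPM1, nucleophosmin, at 0.27 ± 0.26. Of 26 cell division genes 23 were measured, 6 higher and 17 lower, with a median of -0.10. Leaving out increased ALP replicate 7 gave a median of 0.014, leaving out normal ALP replicate 2 gave 0.068, and leaving out normal ALP replicate 3 gave -0.30. The GAPDH covariate gave 0.050. Among them were MCM3 at -0.45 ± 0.29, BIRC5 at 0.33 ± 0.26, TOP2A at 0.38 ± 0.39 and CCNA2 at -0.34 ± 0.39. Of 8 other genes known from osteosarcoma 4 were measured, all higher, with a median of 0.26. NF1, a RAS inhibitor, was at 0.44 ± 0.19 (SE, limma unadjusted p = 0.0274, adjusted p = 0.750), RECQL4, a DNA helicase, at 0.30 ± 0.24, SETD2, a histone methyltransferase, at 0.22 ± 0.30 and ATRX, a chromatin remodeller, at 0.07 ± 0.20.

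Some of these genes had single tumours standing apart. RBL2 was low in normal ALP replicates 2 and 7, at -1.05 and -1.18 from the median, and E2F8, an E2F family member of proliferating cells, was high in increased ALP replicate 4 and normal ALP replicate 2, at 1.20 and 1.27. In normal ALP replicate 2 the metabolic regulator TIGAR and the ribonucleotide reductase subunit RRM2B were high, at 1.67 and 1.23, the MYC target NPM1 was high at 1.19, and MYCN was low at -1.65. NPM1 was also low in normal ALP replicates 3, 6 and 7, at -1.15, -1.32 and -1.06. RRM2B lies on the chromosome of MYC, as does RECQL4, which was high in increased ALP replicate 3, at 1.65. SETD2 was low in normal ALP replicate 8, at -2.27, and NF1 in normal ALP replicate 6, at -1.12. Low values of CDC6 (-2.52), RRM2 (-2.31), MCM5 (-2.25), BIRC5 (-1.89) and MCM4 (-1.38) were those of normal ALP replicate 3, the tumour with the lowest cell division score, and CDC6 was also low in increased ALP replicate 7, at -1.74.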

How the data were processed

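Per the labels' protocols, TRIzol-extracted total RNA of 18 tumours was hybridised to 1-colour arrays. The authors deposited log2 values for 43035 probe sets. MAS5 is named, with no version, per the submitters' processing notes, and the summary and scaling steps are not given in the sources used here. Detection calls were not used, so which probe sets lay above background is not known.

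Here 111 control probe sets were set aside, values were turned back to linear signal, 16 was added and log2 taken. Probe sets with a mean below the 40th percentile (6.15) were left out of the fit, leaving 25754. Symbols came from the platform annotation (29254 probe sets with 1 symbol, 439 with several, 13231 with none). For 27680 probe sets the identifier matched the RefSeq gene table (UU_Cfam_GSD_1.0), which served for names and gene order only.

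Groups were compared with limma 3.58.1 in R 4.3.3 (lmFit, eBayes with a trend, two-sided, Benjamini-Hochberg over all tested) and by exact permutation over 48620 splits. The labels name 1 tumour per array, and the highest correlation between 2 arrays was 0.966. Tumour numbers were shared between groups, but same-number deviations correlated between -0.164 and 0.270, so they were not treated as pairs. Correlations used 100000 permutations in Python 3.11.15 with NumPy 2.4.6 and SciPy 1.17.1. CDKN2A had no probe set, so 21 pairs and 7 relations were tested in place of 28 and 8. The limma step was tested on simulated data.

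Members and lists were chosen with earlier results of these data known. A further gene list is not reported here. The text names all member probe sets, the 4 genes of smallest p per list, the 3 most similar genes per member and the neighbours of MYC in normal ALP replicate 2. HACD4, the other neighbours, DLA88 and the list genes with a single tumour standing apart were chosen after their values were seen, as was the range of 10 neighbours per side. Alternatives were offsets of 1, 64 or none, other filters, normalizations, variance models, array weights, RNA quality covariates, a replicate block and leaving out arrays.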

Additional observations from a re-analysis of the deposited data

Results flagged for a closer look

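In 26 groups of 9 tumours at the member probe sets, 4 had a highest or lowest tumour separated from its nearest neighbour by more than Dixon's 95% limit. Chance flags about 1 in 20 groups, and probe sets of 1 gene are not independent. Within increased ALP these were CDKN2B in replicate 6 (6.58), MDM2 probe set 1 in replicate 1 (11.92) and CCNE1 probe set 2 in replicate 4 (7.27), and within normal ALP MYC in replicate 2 (11.41). HACD4, chosen after its values were seen, was examined by the same limit as a description. Normal ALP replicate 2 lay past it at the 3 HACD4 probe sets (8.01, 7.83 and 6.78), which run together. The MTAP levels did not pass it, since several tumours were low together.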

How the results depend on the processing

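The counts of called probe sets, over all and over members, were 0 under every alternative, including the tissue number as a replicate block (0 called). The differences of CDKN2B, CDK4 and CCNE1 kept their sign under every setting run, but not their size. CDKN2B was 0.067 with the actin covariate, 0.066 without increased ALP replicates 3 and 6, 0.11 with offset 64 and 0.32 with no offset. CDK4 probe set 1 was -0.080 with the actin and -0.13 with the GAPDH covariate. With array weights CCNE1 was 0.064 and 0.015 at its probe sets. The actin covariate moved RB1 to 0.29 and 0.42 at its probe sets and MYC to 0.49. The differences of the other genes changed sign under some settings. RB1 probe set 1 was -0.0022 with offset 1, -0.0032 with no offset, -0.012 with quantile normalization, -0.00082 with array weights and -0.039 without increased ALP replicate 4 and normal ALP replicate 1 (-0.044 to 0.11 without single arrays). RB1 probe set 2 was -0.0075 with quantile normalization, -0.063 with array weights and -0.037 without those 2 tumours (-0.054 to 0.091). MYC was -0.057 with array weights and -0.12 without those 2 (-0.11 to 0.27). With the actin covariate MDM2 probe sets 1 and 2 were at -0.029 and -0.038 and CCND1 probe set 1 at -0.23. MDM2 probe set 3 was 0.0038 after scaling to the 75th percentile and 0.020 without increased ALP replicates 3 and 6. CCND1 probe set 1 was -0.075 without increased ALP replicate 4 and normal ALP replicate 1, and probe set 2 was 0.00026 after scaling, 0.027 with array weights, 0.11 with the GAPDH covariate and 0.086 without increased ALP replicates 3 and 6. Without single arrays MDM2 probe set 2 ran from -0.090 to 0.11, probe set 3 from -0.14 to 0.024, CCND1 probe set 1 from -0.12 to 0.21 and probe set 2 from -0.23 to 0.065. The causes were not tested. Of tumours standing apart at the 13 member probe sets, 1 high remained with the stricter limits, where 1.34% of all tested probe sets had one. Within groups of 9 there were 1 high and 1 low, where 10.3% and 5.12% of all tested probe sets had one. Relations with the cell division score passing after adjustment fell to 0 without the 2 farthest tumours.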
